A study of Homo sapiens with 6 samples.

Results

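The let-7 and miR-98 guide strands are the 9 mature miRNAs hsa-let-7a-5p, hsa-let-7b-5p, hsa-let-7c-5p, hsa-let-7d-5p, hsa-let-7e-5p, hsa-let-7f-5p, hsa-let-7g-5p, hsa-let-7i-5p and hsa-miR-98-5p. They were chosen by the name of the array probe, which uses no measured value, and they are 9 of the 2565 miRNA probes on the array. RNA came from Panc-1, an established line of human pancreatic ductal adenocarcinoma (PDAC), and was labelled with Cy5 and read in 1 colour on Toray 3D-Gene arrays. Control cells (0 ng/mL of TGF-β) gave 3 arrays, and cells given TGF-β, a cytokine that drives epithelial–mesenchymal transition, at 10 ng/mL for 72 h gave the other 3. The comparison addressed which miRNAs differed in level after TGF-β. The labels do not say whether the arrays of a group came from separate cultures, so p-values measure only the spread between these arrays, which may be technical.

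The let-7 family is a set of closely related miRNAs that is low in stem cells and high in differentiated tissue. The guide strand of each precursor is loaded onto an Argonaute protein, pairs through its seed with messenger RNAs, and lowers their translation and stability. Well-known targets include RAS genes, HMGA2, MYC and LIN28, and LIN28 in turn blocks the maturation of let-7 precursors. In many tumours let-7 is described as a suppressor of growth.

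The sequences, from RefSeq (GRCh38.p14), are shown because the probes had to tell apart RNAs that differ by few bases. All are written 5′ to 3′, and capitals mark the seed, bases 2 to 8, which was GAGGUAG in all 9.
hsa-let-7a-5p: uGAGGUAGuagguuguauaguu
hsa-let-7b-5p: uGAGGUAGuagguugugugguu
hsa-let-7c-5p: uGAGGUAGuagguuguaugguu
hsa-let-7d-5p: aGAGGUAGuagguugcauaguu
hsa-let-7e-5p: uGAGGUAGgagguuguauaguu
hsa-let-7f-5p: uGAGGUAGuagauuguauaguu
hsa-let-7g-5p: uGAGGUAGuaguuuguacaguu
hsa-let-7i-5p: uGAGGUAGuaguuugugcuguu
hsa-miR-98-5p: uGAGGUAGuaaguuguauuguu

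All 9 were 22 bases long. Over their 36 pairs they differed at 1 to 6 positions, with a median of 3, and every difference lay outside the seed. Counted from the 5′ end, let-7c-5p differed from let-7a-5p by A19G, let-7e-5p by U9G and let-7f-5p by G12A. The fourth pair with a single difference was let-7c-5p and let-7b-5p, by A17G. The least similar to let-7a-5p was let-7i-5p, with G12U, A17G, U18C and A19U. How far each probe also binds its neighbours in sequence is not given in the sources used here, and a part of let-7a-5p RNA in the signal of the let-7c-5p, let-7e-5p or let-7f-5p probe was not tested.

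The 9 miRNAs come from 12 genes. Genes for let-7a-5p lie in 3 places, on chromosomes 9, 11 and 22, and let-7f-5p has a gene on chromosome 9 and a gene on chromosome X, so a probe signal is a sum over these genes. On chromosome 9, MIRLET7A1 and MIRLET7F1 are 310 bases apart, and MIRLET7D follows 2400 bases further, all inside the long noncoding RNA gene MIRLET7A1HG. On chromosome X, MIR98 and MIRLET7F2 are 850 bases apart inside HUWE1. MIRLET7G lies inside WDR82 on chromosome 3 and MIRLET7I inside MIRLET7IHG on chromosome 12.

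All 9 probes were bright on all 6 arrays. Net signals, the spot's median intensity minus the mean of the blank spots, ran from 192 units for let-7i-5p to 3686 units for let-7f-5p, both on control arrays. The detection limit, the mean plus 2 SD of the blank spots, was 19.5 to 22.8 units of spot signal, and the dimmest member spot gave 211 units. The median spot over all miRNAs gave 20.4 to 24.1 units, so a typical probe of this array was near its limit and these 9 were not. Together they made up 3.13% to 3.97% of the net signal of all miRNA probes. The number of arrays, and for dim probes the signal over background, limits the precision.

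The miRNAs detected on an array numbered 1531 to 1787. Lists of cell type miRNAs were also read, which do not test whether the cells were Panc-1. All 4 listed for pancreatic cancer cells (miR-21-5p, miR-31-5p, miR-221-3p and miR-222-3p) were detected on every array. Their net signals summed to 21538 to 29632 units in control and 23648 to 25561 units in TGF-β. Most of this was miR-21-5p, with spot signals of 18373 to 25471 units in control and 19398 to 20247 units in TGF-β. Of 6 epithelial miRNAs (miR-205-5p and the miR-200 family), 2 were detected on every array, with sums of 11.3 to 21.8 and 15.6 to 19.6 units. Acinar miRNAs (0 of 3 on every array) summed to at most 2.84 units and those of blood cells (3 of 6) to at most 44.2 units. The liver miRNA, miR-122-5p, was detected on 3 of 6 arrays and gave a net signal of at most 3.04 units. The 2 islet miRNAs summed to 267 to 513 units in control and 381 to 474 units in TGF-β, with miR-7-5p detected on all 6 arrays and miR-375 on 1. All control arrays carried 1 chip code and all TGF-β arrays another, so chip and treatment cannot be told apart.

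The brightest member was let-7f-5p. Its net signals were 2192, 2892 and 3686 units on control arrays 1, 2 and 3 and 2582, 3548 and 3108 units on TGF-β arrays 1, 2 and 3. The groups overlapped, with the lowest and the highest signal both among the controls. For let-7a-5p the control signals were 2181, 2463 and 2960 units and the TGF-β signals 2483, 3001 and 2479 units. The lowest array was again control 1, and the TGF-β arrays lay inside or just above the control range.

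Next in order came let-7d-5p, with 1518, 1733 and 2129 units in control and 1626, 2170 and 1918 units in TGF-β. For let-7c-5p the values were 1260, 1398 and 1770 units against 1315, 1737 and 1631 units. Both miRNAs had their lowest signal on control array 1, and their groups overlapped. The let-7e-5p probe gave 904, 1052 and 1265 units in control and 1006, 1304 and 1185 units in TGF-β. That of let-7b-5p gave 917, 998 and 1135 units against 908, 1175 and 1030 units. These last 2 were the closest of all neighbours in level.

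The 3 dimmest were let-7g-5p, miR-98-5p and let-7i-5p. Net signals of let-7g-5p were 488, 540 and 678 units in control and 490, 668 and 579 units in TGF-β. The values for miR-98-5p were 316, 356 and 423 units against 342, 403 and 334 units. For let-7i-5p they were 197, 192 and 251 units against 218, 225 and 234 units. In each of the 3 the TGF-β arrays lay within the range of the control arrays.

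**Figure D1:**
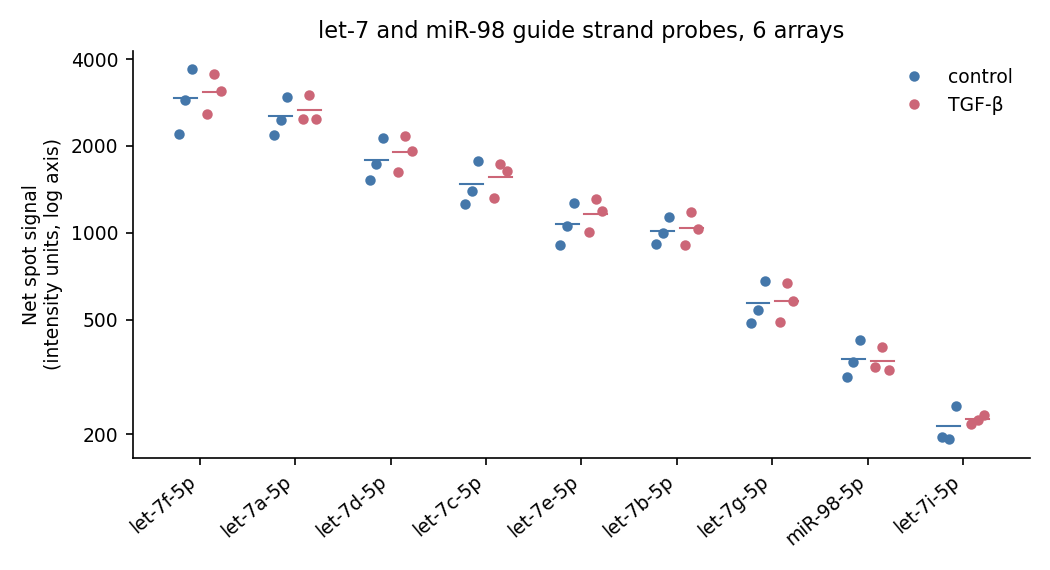
Net spot signal (intensity units, log axis) of the 9 let-7 and miR-98 guide strand probes, in order of their mean, with a point for each array and a line at the mean of the 3 arrays of a group. Control and TGF-β points overlap for every probe, and the levels run from 192 to 3686 units.

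The order of the probes by net signal was let-7f-5p, let-7a-5p, let-7d-5p, let-7c-5p, let-7e-5p, let-7b-5p, let-7g-5p, miR-98-5p and let-7i-5p. It was nearly the same on all arrays: 7 of the 8 neighbouring pairs kept their order on 6 of 6 arrays, and let-7e-5p exceeded let-7b-5p on 5 of 6. The let-7e-5p and let-7b-5p probes differed by 0.12 ± 0.08 (log2 of the net signal ratio within an array, SD, n = 6), with a range of -0.02 to 0.20. The let-7f-5p and let-7a-5p probes differed by 0.20 ± 0.13, down to 0.0069 on 1 array, so these neighbours were hardly apart there. The other 6 steps had means of 0.28 to 0.85, and none fell below 0.23 on any array. From end to end, the let-7f-5p signal was 13.5 times that of let-7i-5p (geometric mean, range 11.1 to 15.8 over the 6 arrays). A probe signal is not an amount of RNA, since probes differ in how well they bind. In the order of signal the 9 miRNAs have 7, 8, 9, 9, 9, 10, 8, 7 and 9 G or C bases, and the part of base composition in the signals was not tested.

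The net signals of most of the 9 shifted in the same direction from array to array within a group. Expressed as the deviation of each miRNA from its own mean over the 6 arrays (log2, without normalization), the average over the 9 was -0.25, -0.07 and 0.22 on control arrays 1, 2 and 3 and -0.14, 0.20 and 0.04 on TGF-β arrays 1, 2 and 3. The median over the 1282 miRNAs detected on all arrays moved in the same order within each group, at -0.13, -0.08 and 0.22 in control and -0.13, 0.10 and 0.04 in TGF-β. Not every member followed: on TGF-β array 3, let-7a-5p (-0.06) and miR-98-5p (-0.11) were below their own means and the other 7 above. From control array 1 to 2, let-7i-5p went from -0.15 to -0.18 while the average rose. On control array 1 let-7f-5p stood lowest, 0.43 below its own mean. The highest difference between group means of a member on this scale was 0.12, for let-7e-5p.

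**Figure D2:**
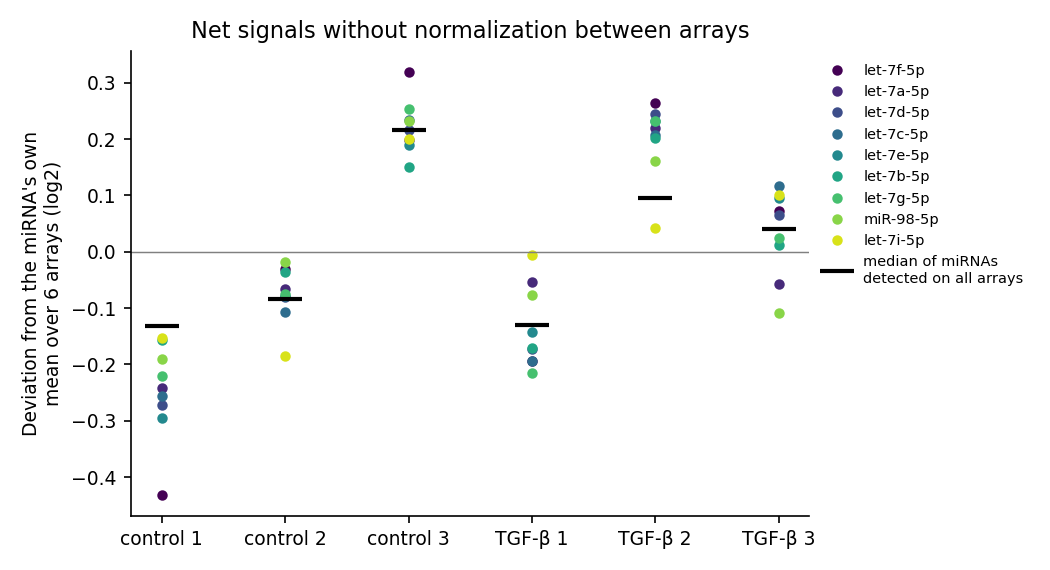
Deviation of each let-7 and miR-98 probe from its own mean over the 6 arrays (log2 of the net signal, without normalization), by array, with a point for each probe and a bar at the median of the 1282 miRNAs detected on all arrays. The 9 probes average -0.25 on control array 1 and 0.22 on control array 3, and on TGF-β array 3 they lie on both sides of 0.

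For the comparison of TGF-β with control, net signals were quantile normalized between arrays, a step that gives every array the same distribution of values and so takes each value from the rank of its probe. None of the 9 was called at an adjusted p under 0.05 in limma after adjustment by Benjamini-Hochberg for 1457 detected miRNAs, of which 58 (3.98%) were called, 38 of them (2.61%) higher in TGF-β. At an unadjusted p under 0.05 limma gave 1 of the 9 and 200 of the 1457. The methods' t-test gave 3 of the 9 and 195 of the 1457, and 0 of the 9 after adjustment. The log2 differences, TGF-β minus control, ranged from -0.20 to 0.12 over the 9 with a median of -0.02, against a median of -0.01 over all 1457. Of the 9, 7 were below 0 and 2 above. Groups did not overlap on the normalized scale for let-7c-5p and let-7f-5p, 2 of 9, against 18.9% of all detected miRNAs. In bulk RNA, a change in the level per cell cannot be told apart from a change in the share of cells with the miRNA.

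The member with the lowest p was let-7f-5p. Its normalized log2 values were 11.58, 11.76 and 11.65 in control and 11.46, 11.46 and 11.46 in TGF-β, so every TGF-β array was lower. The ratio was 0.872 (95% interval 0.802 to 0.948), the limma p was 0.00414 and the adjusted p 0.0875, and the exact permutation p was 0.1, 2-sided, the smallest that 3 against 3 arrays can give. On the ranks behind these values, let-7f-5p was probe 18, 16 and 17 of the array in control, counted from the brightest, and probe 19 on each TGF-β array. Equal ranks gave nearly equal normalized values in TGF-β (SD 0.00044, n = 3). The interval and the limma p therefore do not reflect the spread of the TGF-β net signals. A single miRNA, miR-31-5p, was below let-7f-5p on all control arrays and above it on all TGF-β arrays. Before normalization the let-7f-5p groups overlapped, and its mean net signal was 2923 ± 748 units in control and 3079 ± 484 units in TGF-β (SD, n = 3). The direction turned with the scaling: with arrays scaled to the median of the detected miRNAs, the log2 difference was 0.12 (95% interval -0.15 to 0.39, limma adjusted p = 0.791). Without control array 1, let-7f-5p was called, with a limma adjusted p of 0.0189.

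The other member whose groups did not overlap was let-7c-5p, with normalized log2 values of 10.52, 10.45 and 10.49 in control and 10.55, 10.60 and 10.68 in TGF-β. Its ratio was 1.09 (0.999 to 1.18), with a limma adjusted p of 0.371 and an exact permutation p of 0.1. It was above 0 in all 22 alternatives, at 0.05 to 0.21 on the log2 scale, and called in none of them. Ratios for let-7a-5p and let-7b-5p were 0.927 (0.852 to 1.01) and 0.924 (0.847 to 1.01), both with a limma adjusted p of 0.427. The other 5, let-7d-5p, let-7e-5p, let-7g-5p, let-7i-5p and miR-98-5p, had log2 differences between -0.06 and 0.06 and limma adjusted p-values of 0.791 to 0.953.

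Whether the family as a whole lay above or below control depended on the scaling. With median scaling all 9 log2 differences were above 0, from 0.0074 for miR-98-5p to 0.15 for let-7e-5p, against a median of 0.01 over all detected miRNAs. Without normalization 8 of 9 were above 0, and with the deposited values, which carry the authors' own scaling, 9 of 9, from 0.11 to 0.25. In those deposited values the median over all detected miRNAs was itself 0.11, and the members' median lay 0.10 above it. None of the 9 was called under any of these 3 settings, where the lowest adjusted p in limma was 0.633. The 95% intervals over all 9 reached from 0.802-fold to 1.19-fold with quantile normalization and from 0.870-fold to 1.31-fold with median scaling. They reached from 0.781-fold to 1.41-fold without normalization, from 0.832-fold to 1.57-fold in the deposited values and from 0.0826-fold to 42.9-fold with the local background. A p that misses the threshold does not show equal levels.

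**Figure D3:**
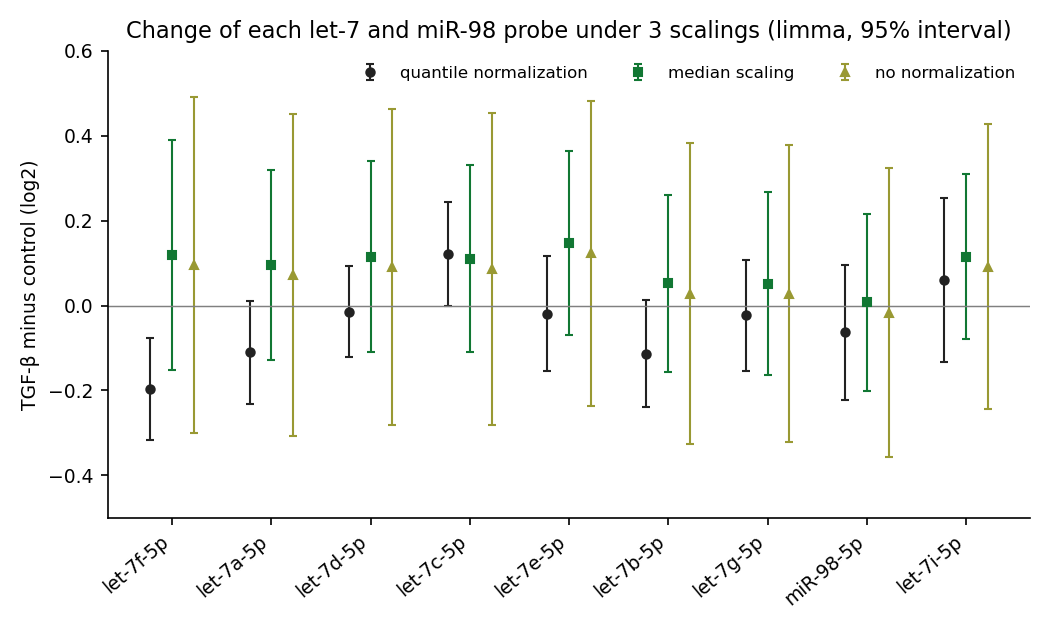
Log2 difference between TGF-β and control for each let-7 and miR-98 probe under quantile normalization, median scaling and no normalization, as fitted by limma, with 95% intervals and probes in order of signal. Quantile normalized values lie between -0.20 and 0.12 on both sides of 0, while median scaling puts all 9 above 0, and only the quantile interval of let-7f-5p does not reach 0.

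Within an array, the ratio of a pair of members does not depend on a scaling factor, so the relative levels in the family were also compared. Over the 36 pairs, the log2 ratio of net signals changed between groups by -0.11 to 0.14. On quantile normalized values the largest change was -0.32, for let-7f-5p to let-7c-5p. Groups did not overlap for 3 pairs on net signals (let-7a-5p to miR-98-5p, let-7d-5p to let-7g-5p and let-7e-5p to let-7g-5p) and for 8 other pairs on quantile normalized values, with no pair in both. The smallest exact permutation p was 0.1, and 1 after Benjamini-Hochberg adjustment over the 36 pairs. The largest of the 3, let-7e-5p to let-7g-5p, was 0.92 ± 0.04 in control and 1.01 ± 0.04 in TGF-β (log2, SD, n = 3).

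The opposite strands of the same precursors, usually degraded and called passenger strands, were dim. Of 11 on the array, 6 met the detection rule (above the limit on all 3 arrays of a group) and none was called. Spot signals of the 11 were 18.1 to 28.8 units, beside blank means of 18.2 to 21.3 units. Net signals of let-7a-3p were 5.64, 4.59 and 7.48 units in control and 4.33, 4.41 and 2.85 units in TGF-β, a log2 difference of -0.61 in limma with an adjusted p of 0.222. Every TGF-β array was below every control array for it. The other 5 tested were let-7a-2-3p (0.57), let-7b-3p (-0.57), let-7f-1-3p (-0.06), let-7f-2-3p (-0.60) and miR-98-3p (0.22), given as log2 differences, with limma adjusted p-values of 0.490 to 0.942. Single arrays moved these values: let-7a-3p was -0.40, let-7f-2-3p -0.15 and let-7a-2-3p 0.35 without TGF-β array 3, let-7b-3p was -0.24 without TGF-β array 1 and -0.89 without array 2, and miR-98-3p was 0.05 without control array 1 and 0.47 without control array 3. Without background correction all 6 were between -0.12 and 0.07. Not tested were let-7c-3p, let-7d-3p, let-7e-3p, let-7g-3p and let-7i-3p, whose net signals were at most 2.41 units.

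Beyond the 9, 2 miRNAs on the array carry the same seed, among the 2253 of 2565 probes with a sequence in the RefSeq table. For miR-4458 the limma log2 difference was -0.67 with an adjusted p of 0.375, at net means of 2.99 and 1.96 units. It was -0.38 without TGF-β array 3, -0.069 without background correction and -0.19 in the deposited values. The other, miR-4500, was not tested, with net means of -0.14 and 0.46 units.

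Several let-7 precursors share a transcript with precursors of other miRNAs, listed here as cluster partners. The list was drawn up with earlier results of these data known, so its count of calls is a description and no test of the list. Of 13 partners on the array, 12 were tested and 5 were called in limma, all higher in TGF-β, beside 2.61% of all detected miRNAs. The other 7 were not called. Not tested was miR-99a-3p, the opposite strand of MIR99A. Its net signals were 0.43, 0.85 and 1.64 units in control and 1.35, -0.42 and 1.62 units in TGF-β. The 5 called partners come from transcripts on chromosomes 21 and 11. MIR99AHG on chromosome 21 holds MIR99A, MIRLET7C and MIR125B2, and MIR100HG on chromosome 11 holds MIR100, MIRLET7A2 and MIR125B1. Only miR-99a-5p among the 5 has its gene on chromosome 21 alone. The others include both strands of MIR100 and of MIR125B1, so the 5 are not separate cases. MIRLET7C (chr21:16539828-16539911, plus strand, GRCh38.p14) lies 658 bases from MIR99A, and MIRLET7A2 (chr11:122146522-122146593, minus strand) lies 5635 bases from MIR100. The guide strands of these partners are shown for contrast, since their seeds, again in capitals, differ from that of let-7. The sequence of miR-99a-5p differs from that of miR-100-5p by U16A alone. How far the miR-99a-5p probe also binds miR-100-5p is not given in the sources used here and was not tested.
hsa-miR-99a-5p: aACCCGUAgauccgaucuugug
hsa-miR-100-5p: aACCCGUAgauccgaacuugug
hsa-miR-125b-5p: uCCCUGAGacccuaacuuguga

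On the chromosome 21 transcript, net signals of miR-99a-5p were 809, 912 and 1072 units in control and 1454, 1708 and 1568 units in TGF-β. All TGF-β arrays were above all control arrays, while the let-7c-5p groups overlapped on net signals and did not on quantile normalized values. The ratio for miR-99a-5p was 1.63 (95% interval 1.51 to 1.77; limma adjusted p = 1.03e-05). On the chromosome 11 transcript, miR-100-5p gave 1123, 1369 and 1742 units in control and 2065, 2483 and 2467 units in TGF-β, a ratio of 1.68 (1.54 to 1.83; limma adjusted p = 1.03e-05). For miR-125b-5p, which has a gene on each of the transcripts, the signals were 722, 831 and 945 units against 1264, 1405 and 1585 units, a ratio of 1.71 (1.51 to 1.93; limma adjusted p = 0.000128). Both other calls were opposite strands from chromosome 11, miR-100-3p (log2 difference 1.11, limma adjusted p = 0.00504) and miR-125b-1-3p (0.77, limma adjusted p = 0.00846), at net signals of at most 16.6 units. The opposite strand of MIR125B2 on chromosome 21, miR-125b-2-3p, had a log2 difference of -0.75 with a limma adjusted p of 0.388. Its net signals were 2.07, 2.82 and 1.93 units in control and 1.56, 1.29 and 1.24 units in TGF-β, each TGF-β array below each control array. On quantile normalized values its groups overlapped (exact permutation p = 0.2), and without background correction its log2 difference was -0.064. The limma call for miR-100-3p ended without TGF-β array 2 (adjusted p = 0.0713), with a floor of 4 units (0.106) and without the intensity trend (0.0523), and that for miR-125b-1-3p without TGF-β array 1 (0.0619) or 2 (0.0713). Without background correction the log2 differences of miR-100-3p and miR-125b-1-3p were 0.38 and 0.26. With the local background, none of the 5 was called. The methods' t-test and the fit without a filter on dim probes each kept 2 calls, miR-99a-5p and miR-100-5p.

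The difference between partners and let-7 was then taken within each array, a comparison chosen after these values were seen. The log2 ratio of miR-99a-5p to let-7c-5p was -0.64, -0.62 and -0.72 in control and 0.14, -0.02 and -0.06 after TGF-β. Relative to let-7c-5p, miR-99a-5p was thus 1.60-fold higher in TGF-β, with no overlap between groups. The ratio of miR-100-5p to let-7a-5p was -0.96, -0.85 and -0.76 in control and -0.27, -0.27 and -0.01 in TGF-β, also a 1.60-fold difference. Ratios of miR-125b-5p to let-7c-5p and to let-7a-5p changed 1.61-fold and 1.62-fold. Each of the 4 had an exact permutation p of 0.1, the smallest possible, and 0.16 after Benjamini-Hochberg adjustment over the 8 pairs compared. The let-7a-5p signal also holds RNA from chromosomes 9 and 22, so it does not measure MIRLET7A2 alone, while let-7c-5p has a single gene.

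A further cluster of this kind, on chromosome 19, gave smaller differences. MIRLET7E (chr19:51692786-51692864, plus strand, GRCh38.p14) lies 104 bases from MIR99B and 389 bases from MIR125A, inside SPACA6. The ratios of miR-99b-5p and miR-125a-5p to let-7e-5p changed by 0.06 and 0.13 on the log2 scale, with overlapping groups and exact permutation p-values of 0.6 and 0.4. On quantile normalized values they changed by 0.21 and 0.26, with groups apart. In limma neither miR-99b-5p (log2 difference 0.19, adjusted p = 0.231) nor miR-125a-5p (0.24, adjusted p = 0.194) was called. The ratio of miR-125a-3p to let-7e-5p changed by -0.22, with groups apart and an exact permutation p of 0.1 on net signals, but overlapping groups on quantile normalized values. On chromosome 22, MIR4763 lies 28 bases from MIRLET7B, and the ratio of miR-4763-3p to let-7b-5p changed by -0.14 with overlapping groups. Whether the chromosome 21 and 11 clusters differ in this from the chromosome 19 cluster was not tested.

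**Figure D4:**
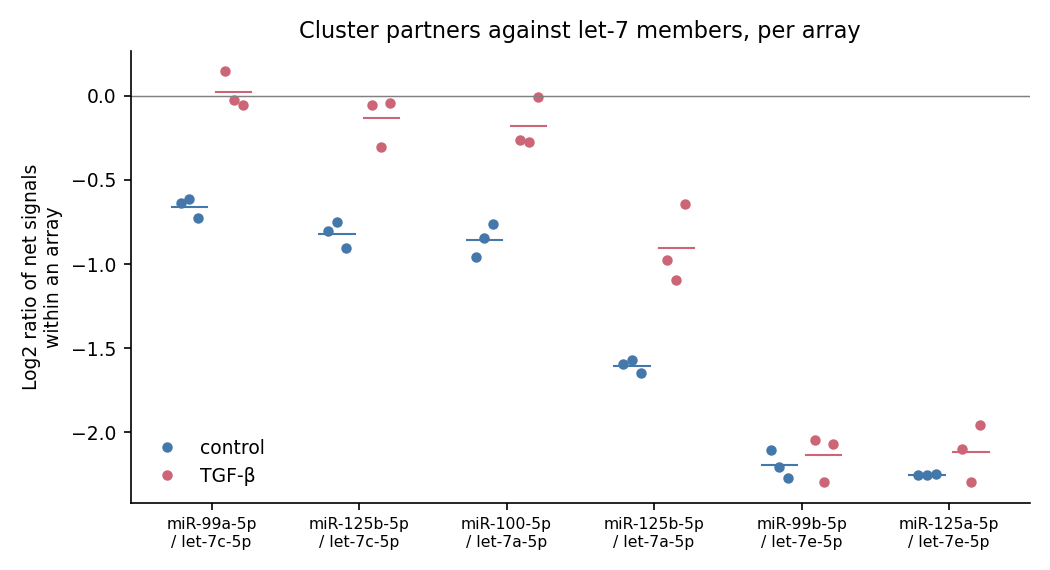
Log2 ratio of the net signals of a cluster partner and a let-7 miRNA within each array, with a point for each array and a line at the mean of 3. The ratios to let-7c-5p and let-7a-5p are higher on every TGF-β array, by 1.60-fold to 1.62-fold, while those of miR-99b-5p and miR-125a-5p to let-7e-5p overlap.

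Among the other 1446 detected miRNAs with a value on every array, the 5 whose normalized levels followed the mean of the 9 most closely over the 6 arrays were miR-15a-5p (Pearson r = 0.956), miR-29c-5p (0.948), miR-34a-3p (0.945), miR-30a-5p (0.942) and miR-34a-5p (0.941). These are descriptions over 6 arrays that share their groups and their normalization. With median scaling another 5 came first, led by miR-20b-5p (0.982), and none of the quantile list was among them. The members themselves followed their own mean unevenly on the quantile scale, from 0.877 for let-7a-5p to -0.904 for let-7c-5p.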

How the data were processed

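For each of the 6 arrays the authors deposited scanner output with linear, unnormalized median intensities of 3200 spots and of the area around each spot (its local background). A deposited table of scaled intensities was used as an alternative. Its empty cells matched the detection rule below in all 15390 cells. How the arrays were read at several gains could not be resolved for single spots.

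From the spot intensities, the mean of the 320 blank spots of the array, less 5% at each end, was subtracted. The 2565 miRNA probes were quantile normalized, set to at least 1 unit and taken to log2. The local background was kept as an alternative, because it was 0.503 to 1.03 of the spot signal in the median over the 9 probes of an array. On control array 1 it was at or above the spot signal for 7 of the 9. Flagged spots (3 for miRNAs) were missing. Groups were compared in R 4.3.3 with limma 3.58.1 (lmFit, eBayes with trend), with Benjamini-Hochberg adjustment over 1457 miRNAs above the blank mean plus 2 SD on every array of at least 1 group. Single values were tested by exact permutation, 2-sided. The procedure was tested on simulated data with log2 changes of 1 in 200 detected probes. This does not show whether differences as small as those of the 9 would be called. Figures used matplotlib 3.10.9 under Python 3.11.15.

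The members and lists were chosen with earlier results of these data known. Named miRNAs were all members, detected passenger strands and miRNAs of the same seed, called cluster partners, the 5 most correlated miRNAs, and undetected members of these lists. Cell type markers came from a fixed list. Cluster partners that were not called, and miR-31-5p beside let-7f-5p, were named after their values were seen.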

Additional observations from a re-analysis of the deposited data

How the results depend on the processing

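Counts of calls were 58 for all detected miRNAs, 5 for the partner lists and 0 for the 9 guide strands, whose median log2 difference was -0.02. Local background with normexp gave 0 calls in all and 0 partners, with quantile normalization and without normalization (the latter added after the data were seen). In limma, without normalization 35 miRNAs were called, with a floor of 4 units 35, with the deposited values 31, without the filter 20 (2 partners), without the trend 31, and by the methods' t-test 17 (2 partners). Called miRNAs were higher and lower in TGF-β in 38 and 20 cases, against 27 and 8 without normalization and 27 and 4 in the deposited values. Leaving out each array gave 26 to 51 calls in all (26 without TGF-β array 2, 33 without TGF-β array 3, 35 without control array 2), 0 to 1 guide strands, 3 to 5 partners and a median of -0.062 to -0.0010. The replicate block gave 61 calls in all and 1 guide strand, let-7f-5p (limma adjusted p = 0.0479). Deviations of same-numbered arrays correlated at 0.13, 0.11 and -0.03, not all above 0.1, so they were not taken as pairs. Same-numbered arrays also had the same position on their chip (2, 3 and 4 for replicates 1, 2 and 3), so the replicate block is also a block on position, and 2 of 3 control arrays and 1 of 3 TGF-β arrays correlated best with their own number.

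The guide strands' median was 0.22 with local background, 0.42 with local background and no normalization, 0.11 with median scaling, 0.069 with 75th percentile scaling, 0.086 without normalization and 0.21 in the deposited values. Signs turned as follows, on the log2 scale. Median scaling gave let-7a-5p 0.096, let-7b-5p 0.052, let-7d-5p 0.11, let-7e-5p 0.15, let-7f-5p 0.12, let-7g-5p 0.052 and miR-98-5p 0.0074. The 75th percentile gave let-7a-5p 0.055, let-7b-5p 0.011, let-7d-5p 0.074, let-7e-5p 0.11, let-7f-5p 0.078, let-7g-5p 0.011 and miR-4763-5p -0.018. No normalization gave let-7a-5p 0.072, let-7b-5p 0.028, let-7d-5p 0.091, let-7e-5p 0.12, let-7f-5p 0.095, let-7g-5p 0.028 and miR-4763-5p -0.00069. Deposited values gave let-7a-5p 0.20, let-7b-5p 0.16, let-7d-5p 0.22, let-7e-5p 0.25, let-7f-5p 0.22, let-7g-5p 0.15, miR-98-5p 0.11, let-7f-1-3p 0.053, let-7f-2-3p 0.037, miR-125a-3p 0.032 and miR-4763-3p 0.012. Local background gave let-7a-5p 0.16, let-7b-5p 0.92, let-7e-5p 0.079, let-7f-5p 0.93, let-7g-5p 0.22, miR-98-5p 0.38, let-7b-3p 0.017, miR-99b-3p -0.012 and miR-4763-5p -0.019. Without normalization it gave let-7b-5p 0.82, let-7e-5p 0.72, let-7f-5p 0.91, let-7g-5p 0.42, miR-98-5p 0.20, let-7b-3p 0.047, let-7f-1-3p 0.021, let-7f-2-3p 0.0093, miR-125b-2-3p 0.012, miR-4763-3p 0.038 and miR-4458 0.0093. No background correction gave miR-4763-5p -0.00022. Over the arrays left out, let-7d-5p ran from -0.025 to 7.0e-05, let-7e-5p from -0.062 to 0.018, let-7i-5p from -0.00031 to 0.15, let-7f-1-3p from -0.15 to 0.064, miR-99b-3p from -0.090 to 0.23 and miR-4763-5p from -0.045 to 0.065. Apart from let-7f-5p under the replicate block and without control array 1, no guide strand was called in any of the 22 alternatives. With a floor of 4 units, let-7a-2-3p, let-7b-3p, let-7f-2-3p, miR-98-3p, miR-125b-2-3p and miR-4458 had no value. The cause of these moves was not tested.

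The changes of the within-array log2 ratios, TGF-β minus control, were 0.67 to 0.70 for the 4 pairs with miR-99a-5p, miR-100-5p or miR-125b-5p and stayed above 0 under every alternative run, down to 0.14 for miR-100-5p to let-7a-5p with local background, where the cause was not tested.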
